A study of Rattus norvegicus with 6 samples.

Results

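Epithelial cells of the colon are held to each other by adhesion molecules and sealed by tight junctions, and 6 genes of this machinery were followed at healing bowel joins of the rat. They were picked by name and by Ensembl rat gene identifier: Epcam (ENSRNOG00000015667), Cdh1 (ENSRNOG00000020151), Krt8 (ENSRNOG00000009779), Ocln (ENSRNOG00000018297), Cldn1 (ENSRNOG00000001926) and Tjp1 (ENSRNOG00000011077). All 6 were among the 21417 identifiers of the deposited table. That table carries no gene symbols and no reference table used here pairs its identifiers with symbols, so the names rest on the pairing given with the selection. The study compared male rats of the outbred Sprague-Dawley strain, weighing 200 to 230 g, whose colon had been rejoined end to end either by magnetic compression anastomosis (MCA), in which magnets press the bowel ends together, or by conventional suture, the control. Tissue at the join was excised 2 weeks after surgery, and each group held 3 libraries of total RNA described as biological replicates. No genotype, age or pooling of animals is stated, no unoperated colon is among the samples used here, and the animals of both groups had a surgical wound.

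In a simple epithelium, E-cadherin joins neighbouring cells at adherens junctions through the catenins and actin. Tight junctions lie above them, where occludin and claudins span the membrane and zonula occludens proteins tie them to the cytoskeleton. Keratin filaments run between the junctions and give the sheet its strength. In the colon most of these genes are expressed mainly by the mucosa, while the muscle layers, the submucosa and the scar of a join hold little epithelium. The question put to them here was how much epithelial RNA each excised piece held and whether pieces joined by magnets and by suture differed in it. In pieces of whole tissue, fewer epithelial cells and less RNA per epithelial cell cannot be told apart.

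The windows before the annotated starts of Epcam and Ocln are shown as background. They are the 250 bases before the RefSeq start in build GRCr8, 5′ to 3′ in the gene's direction, with the E-box CACCTG or its reverse complement CAGGTG in capitals, the letters that Snail and ZEB repressors of E-cadherin are known to recognise.

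Epcam (chr6:12649679-12649928, minus strand): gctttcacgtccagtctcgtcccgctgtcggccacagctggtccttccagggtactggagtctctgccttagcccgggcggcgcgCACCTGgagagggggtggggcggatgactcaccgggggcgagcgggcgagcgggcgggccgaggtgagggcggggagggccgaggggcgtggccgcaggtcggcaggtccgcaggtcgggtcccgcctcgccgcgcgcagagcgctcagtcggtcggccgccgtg

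Ocln (chr2:33441199-33441448, minus strand): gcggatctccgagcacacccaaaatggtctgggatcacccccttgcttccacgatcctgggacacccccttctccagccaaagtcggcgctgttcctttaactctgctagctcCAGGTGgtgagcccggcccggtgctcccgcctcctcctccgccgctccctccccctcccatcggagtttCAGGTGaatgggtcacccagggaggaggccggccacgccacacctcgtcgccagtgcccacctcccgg

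Motifs are described for the windows of Epcam, Ocln and Cldn1. Those of Krt8 and Tjp1 are not described, because their annotated starts may lie downstream of the true ones, and the table held none for Cdh1. The E-box occurred once in the Epcam window, starting 165 bases before the start, and at 137 and 68 bases before the start of Ocln. The Cldn1 window held none. Of all 33469 windows of this length, 15.9% contained it on either strand. The other motifs were also searched on both strands, and none of their matches overlapped an E-box. The AP-1 motif TGACTCA was found in Epcam and in neither of the other windows, against 4.05% of all windows. The GC box, with the letters GGGCGG, occurred 4 times in Epcam, 2 times in Cldn1 and not in Ocln, and 30.5% of all windows held it. The windows were rich in G and C, with 75.6% in Epcam, 66.4% in Ocln and 59.2% in Cldn1. The median of all windows was 51.2%. The TATA box, searched as TATAAA, was in none of the 3 windows, against 12.9% of all. The last motif, CCAAT, was also in none of the 3, against 34.0% of all. A match is a run of letters and not a shown binding site, and any part of these motifs in the levels was not tested.

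Levels are given in FPKM, the fragments of a gene scaled to its length and to the library total, so that genes can be compared with each other. The 6 library totals recovered from the deposited values lay between 14867454 and 15791079 fragments, a 1.06-fold range. One library stood apart for these genes, MCA replicate 2, and group differences are therefore given with and without it.

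Epcam, a homophilic adhesion molecule of simple epithelia that is widely used to identify epithelial cells, was at 1047, 72.9 and 989 FPKM in MCA replicates 1, 2 and 3. It was at 1069, 406 and 715 FPKM in suture replicates 1, 2 and 3. The groups overlapped: MCA replicates 1 and 3 lay close to suture replicate 1, suture replicate 2 was lower, and MCA replicate 2 was far below every other library, 5.57 times under the next lowest. Epcam ranked 45th, 49th and 52nd by FPKM in MCA replicates 1 and 3 and suture replicate 1, but 788th in MCA replicate 2. Counting error is small beside these gaps, since the lowest value rested on 1897 fragments (95% Poisson interval 69.7 to 76.3 FPKM, for counting error only).

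Cdh1, which encodes E-cadherin, was at 280, 31.7 and 289.5 FPKM with MCA and at 317, 122 and 192 FPKM with suture, in the order of the replicates. The same library was again lowest, 3.86 times below suture replicate 2. Krt8, which encodes the type II keratin of simple epithelia and pairs with keratin 18, was the most abundant of the genes. Its values were 2345, 94.6 and 2867 FPKM with MCA and 2612, 1030 and 2125 FPKM with suture. It was among the 36 most abundant genes of the table in every library except MCA replicate 2, where it ranked 581st. The ratio of its highest to its lowest MCA value was 30.3, wider than that of any other of the 6 genes.

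Ocln, which encodes occludin, a membrane-spanning protein of tight junctions, was at 45.0, 4.72 and 31.9 FPKM with MCA. With suture it was at 47.2, 15.5 and 26.1 FPKM. Its pattern followed that of Epcam and Cdh1, at a level more than 10 times lower than Epcam in each library. The 302 fragments behind its value in MCA replicate 2 gave an interval of 4.20 to 5.28 FPKM, apart from every other library.

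Tjp1, which encodes the scaffold protein ZO-1 and is also expressed by endothelium and other cells, did not share this pattern. It was at 22.0, 18.8 and 19.8 FPKM with MCA and at 24.1, 20.2 and 16.0 FPKM with suture. All 6 libraries lay within a factor of 1.51, the lowest was suture replicate 3, and MCA replicate 2 was within 1.11-fold of the mean of the other MCA libraries. Cldn1, which encodes the barrier-forming claudin-1, was near the limit of detection. It was at 0.269, 0.224 and 0.389 FPKM with MCA and at 0.0779, 0.310 and 0.241 FPKM with suture. These values rested on 14, 11, 20, 4, 16 and 12 fragments. The interval of its lowest library, suture replicate 1, reached from 0.0212 to 0.199 FPKM and that of its highest, MCA replicate 3, from 0.237 to 0.600 FPKM. Intervals of the other 4 libraries overlapped both.

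**Figure D1:**
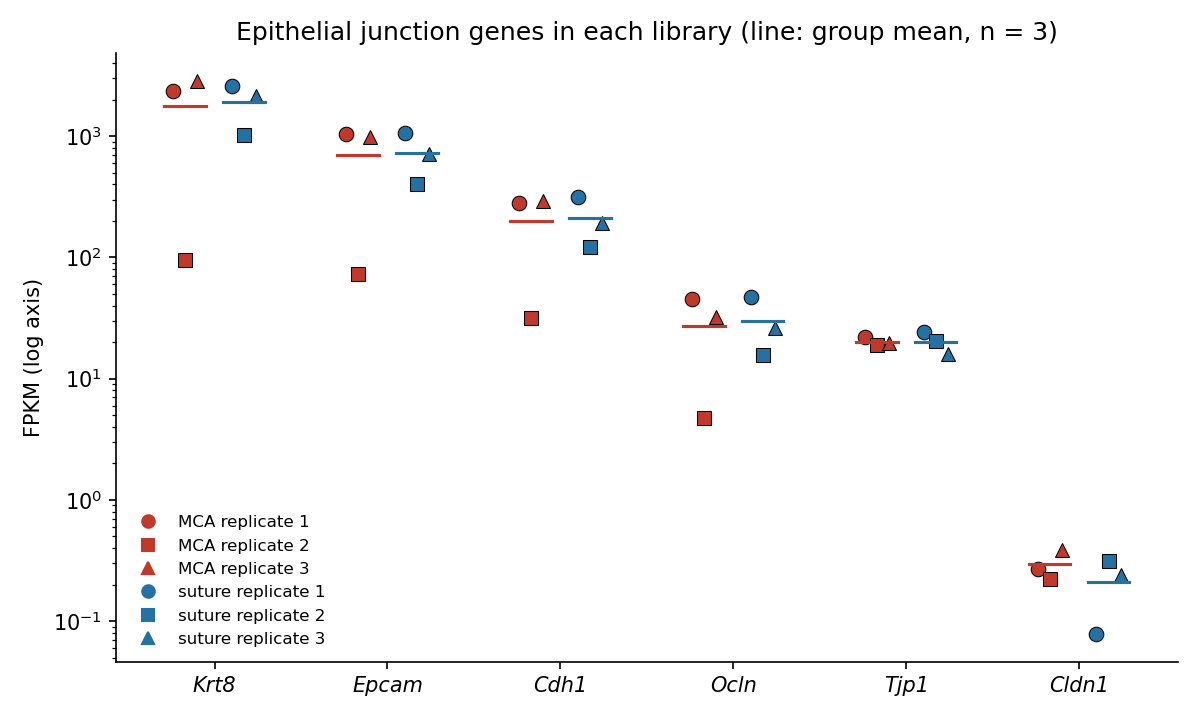
FPKM of each gene (log axis) in the 3 MCA libraries (red) and the 3 suture libraries (blue); symbols mark replicate numbers and lines the group means. MCA replicate 2 is the lowest library for Krt8, Epcam, Cdh1 and Ocln, from 94.6 FPKM for Krt8 to 4.72 FPKM for Ocln, while Tjp1 stays between 16.0 and 24.1 FPKM in all 6 libraries. Of the 13591 genes kept by the filter on low values, 36.5% are lowest in MCA replicate 2.

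The order of levels from Krt8 through Epcam and Cdh1 to Ocln was the same in all 6 libraries. Ocln lay above Tjp1 in 4 libraries and below it in MCA replicate 2 and suture replicate 2, so the order of these neighbours depended on the library. Cldn1 was lowest in every library.

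None of the genes differed detectably between MCA and suture. Mean levels were 703 ± 546 FPKM with MCA and 730.2 ± 332 FPKM with suture for Epcam, and 200.5 ± 146 against 210.3 ± 98.7 FPKM for Cdh1 (SD, n = 3). They were 1769 ± 1473 against 1922 ± 811 FPKM for Krt8, and 27.2 ± 20.6 against 29.6 ± 16.1 FPKM for Ocln (SD, n = 3). Tjp1 had 20.2 ± 1.65 FPKM with MCA and 20.1 ± 4.05 FPKM with suture (SD, n = 3). Cldn1 had 0.294 ± 0.0851 and 0.210 ± 0.119 FPKM (SD, n = 3).

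In the test across genes, 5 of the 6 passed the filter on low values, a mean of at least 1 FPKM, and Cldn1 did not. None of the 5 passed an adjusted p of 0.05 (limma on log2(FPKM + 1), Benjamini-Hochberg over 13591 genes), where 0% of all genes did. At an unadjusted p under 0.05 the count was 0 of 5, against 4.91% of all genes, and the 2 groups overlapped in each of the 5, while 8.70% of all genes had groups that did not overlap. The log2 difference, MCA minus suture, was taken between group means of log2(FPKM + 1), in which a low value weighs more than in mean FPKM. It was -0.68 for Epcam with a 95% interval from -3.14 to 1.79 (limma adjusted p = 0.9997). It was -0.50 for Cdh1 (-2.57 to 1.57), -1.05 for Krt8 (-4.09 to 1.99) and -0.44 for Ocln (-2.34 to 1.47), each with the same adjusted p. The intervals of these 4 genes leave room for differences of 2-fold and more in either direction. That of Tjp1, 0.02 (-0.52 to 0.56), lay within 1 log2 unit of 0 on both sides, which excludes a 2-fold difference on this scale. For comparison, the half-width of the interval had a median of 0.71 log2 units over all genes, and 23.1% of genes had one wider than 1.

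The direction of the difference for the 4 genes was set by 1 library. Without MCA replicate 2 the mean was 1018 ± 41.0 FPKM (SD, n = 2) for Epcam and 284.9 ± 6.55 FPKM (SD, n = 2) for Cdh1. These MCA means were 1.39 and 1.35 times the suture means. It was 2606 ± 369 FPKM for Krt8, 38.5 ± 9.27 for Ocln, 20.9 ± 1.57 for Tjp1 and 0.329 ± 0.0849 for Cldn1 (SD, n = 2). The log2 difference then turned to 0.59 for Epcam (-0.52 to 1.70, limma adjusted p = 0.804), 0.54 for Cdh1 (-0.47 to 1.55), 0.54 for Krt8 (-0.70 to 1.77) and 0.48 for Ocln (-0.58 to 1.55). None passed the adjusted threshold in that fit either, with adjusted p values between 0.797 and 0.972 over the 5 genes. The difference of Tjp1 stayed small at 0.07 (-0.54 to 0.68). MCA replicate 2 was left out because of its low values in the 4 genes, which by itself raises their MCA means. Suture replicate 2, the lowest suture library for the same 4 genes, was kept. The turn to positive values is therefore no evidence of higher levels with MCA.

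**Figure D2:**
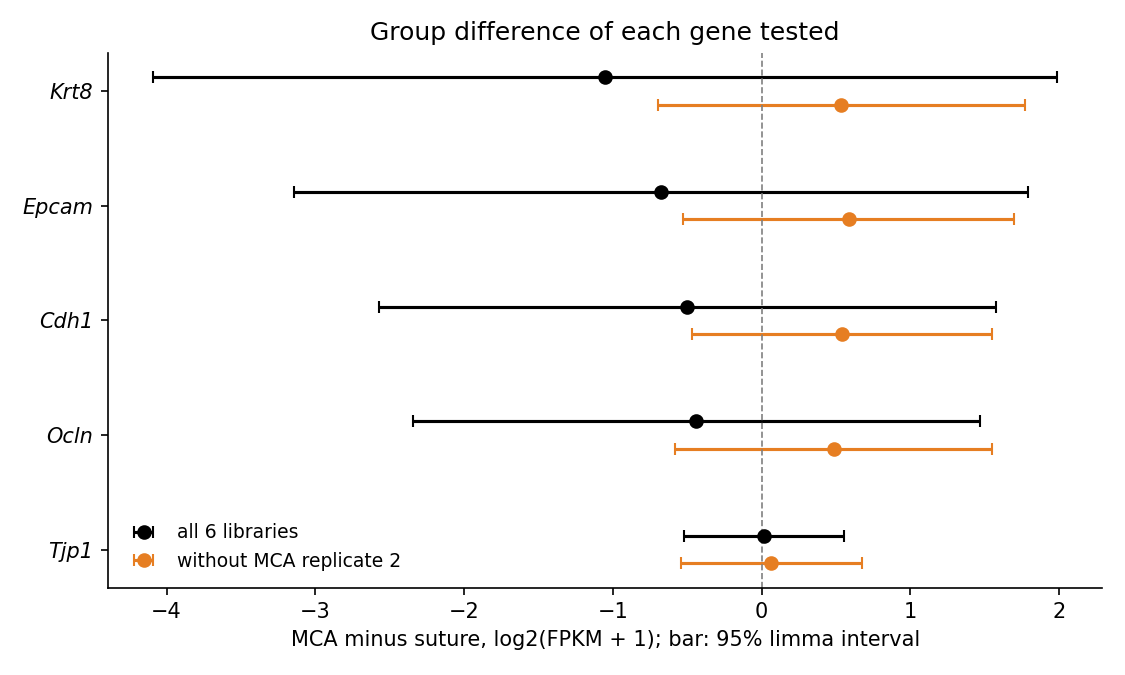
Difference between MCA and suture in log2(FPKM + 1) for the 5 genes tested, with 95% limma intervals, over all 6 libraries (black) and without MCA replicate 2 (orange). The values of Krt8, Epcam, Cdh1 and Ocln change from negative (-1.05 to -0.44) to positive (0.48 to 0.59), and every interval includes 0.

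The spread within each group was wide for the same 4 genes. In the MCA group the SD of log2(FPKM + 1) was 2.19 for Epcam, 1.81 for Cdh1, 2.75 for Krt8 and 1.62 for Ocln, where the median over all genes was 0.36. Between 97.5% and 99.8% of all genes varied less within this group. In the suture group the SDs were 0.70, 0.68, 0.70 and 0.77, above 88.6% to 92.3% of all genes, whose median was 0.33. Tjp1 varied little within MCA, with an SD of 0.11, above 7.70% of all genes. Within suture its SD was 0.28, above 41.3% of all genes. MCA replicates 1 and 3 alone were close to each other: the higher was 1.06 times the lower for Epcam, 1.03 for Cdh1, 1.22 for Krt8 and 1.41 for Ocln. The wide spread of the MCA group in these genes thus came from replicate 2. Between the highest and the lowest suture library the factor was 2.63 for Epcam, 2.59 for Cdh1, 2.54 for Krt8 and 3.04 for Ocln.

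Set against the mean log2 FPKM of MCA replicates 1 and 3, MCA replicate 2 was 27.4 times lower in Krt8, 14.0 times in Epcam, 8.99 times in Cdh1 and 8.03 times in Ocln. All 4 were at least 8-fold lower, as were 3.27% of the 13358 genes above 0 in every library. Of these genes, 63 were lower still than Krt8, 199 than Epcam, 361 than Cdh1 and 435 than Ocln. The median of all genes was lower by 0.26 log2 units in this library. Suture replicate 2 showed a smaller shift against suture replicates 1 and 3, by 2.29 times in Krt8, 2.26 in Ocln, 2.15 in Epcam and 2.02 in Cdh1. At least a 2-fold lower level was found there in 8.66% of all genes, against 19.4% in MCA replicate 2. At least an 8-fold lower level was found in 0.097% of all genes in suture replicate 2, against 3.27% in MCA replicate 2. Tjp1 lay in the middle of both distributions, 1.11 times lower in MCA replicate 2 and 0.04 log2 units higher in suture replicate 2. The part that the amount of mucosa in each piece had in these levels was not tested, since markers of the other bowel layers could not be named in the table.

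**Figure D3:**
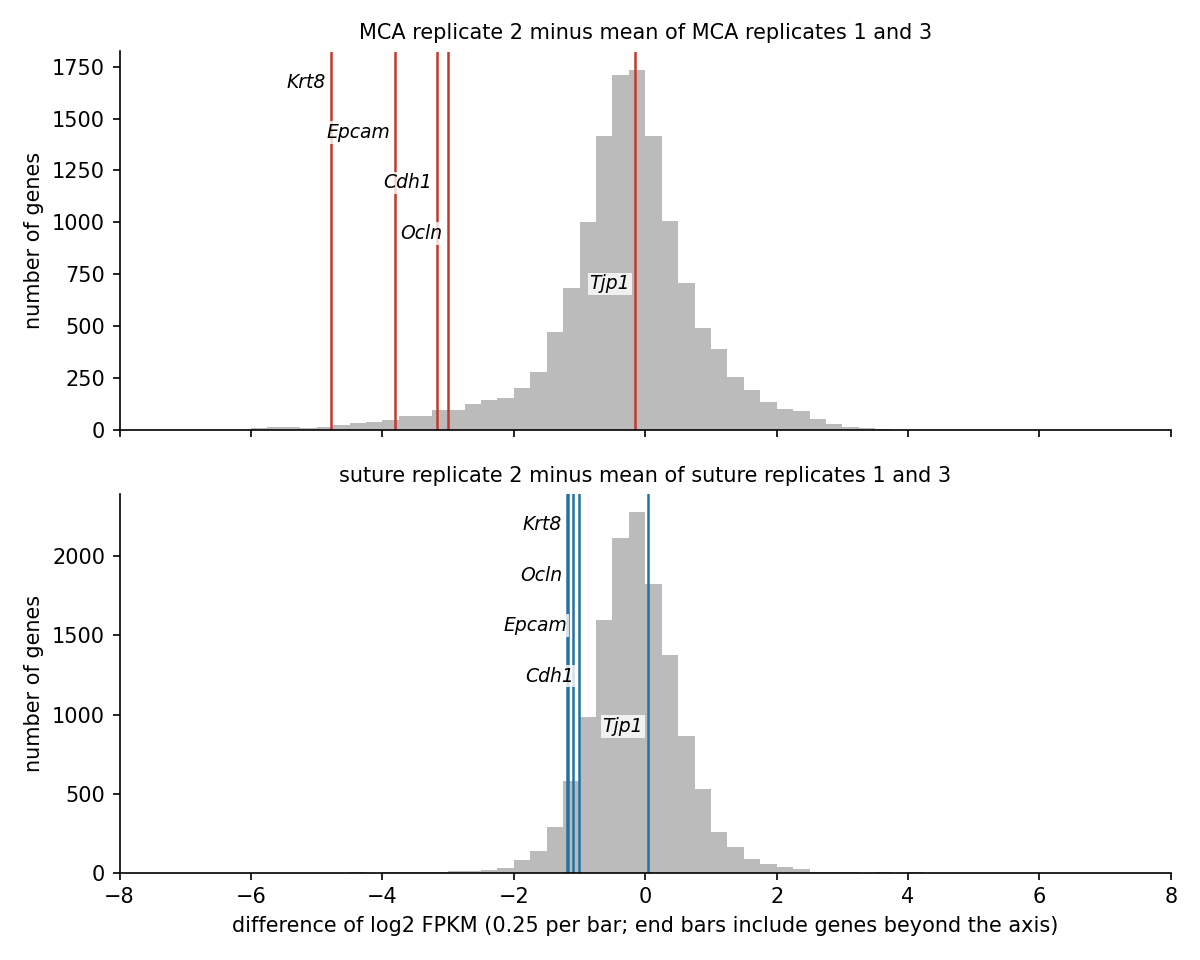
Number of genes by the difference in log2 FPKM between replicate 2 and the mean of the other 2 libraries of its group (MCA above, suture below; 13358 genes above 0 in every library), with lines at the 5 genes tested. Krt8, Epcam, Cdh1 and Ocln lie in the far left of the MCA distribution (-4.78 to -3.01) and on the left side of the suture distribution (-1.19 to -1.01), and Tjp1 lies near the middle of both.

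Ratios within a library do not depend on how libraries are scaled, and they show how far the genes kept step. Cdh1 stood at 0.268 to 0.301 of the Epcam level in 5 libraries, a 1.12-fold range over levels of Epcam that differed 2.63-fold. In MCA replicate 2 it stood at 0.434 (95% counting interval 0.408 to 0.463). Ocln stood at 0.0323 to 0.0441 of Epcam in the other 5 libraries and at 0.0647 (0.0572 to 0.0731) in MCA replicate 2. Krt8 went the other way, with 2.24 to 2.97 times the Epcam level in the other 5 libraries and 1.30 times (1.22 to 1.38) in MCA replicate 2. In that library the keratin was thus lower relative to Epcam, and E-cadherin and occludin were higher relative to it, by more than counting error. Without replicates of that state, no test of this shift exists.

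Tjp1 stood at 0.0200 to 0.0225 of Epcam in MCA replicates 1 and 3 and suture replicates 1 and 3. It stood at 0.0498 in suture replicate 2 and at 0.257 in MCA replicate 2, so that this ratio was highest where Epcam was lowest. Cldn1 was too low for a firm ratio, at 7.28e-05 to 7.63e-04 of Epcam in 5 libraries and 0.00307 (0.00153 to 0.00551) in MCA replicate 2.

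The log2 ratio to Epcam, MCA minus suture, was 0.17 for Cdh1, -0.38 for Krt8, 0.18 for Ocln, 0.70 for Tjp1 and 1.35 for Cldn1. No group difference was detected in the 5 ratios (two-sided exact permutation tests, p = 0.9, 0.4, 0.8, 1 and 0.5, all 1 after Benjamini-Hochberg adjustment), and 3 against 3 libraries cannot give a p below 0.1. Without MCA replicate 2 the differences of Cdh1, Ocln and Tjp1 turned to -0.04, -0.08 and -0.52, and those of Krt8 and Cldn1 shrank to -0.05 and 0.26.

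**Figure D4:**
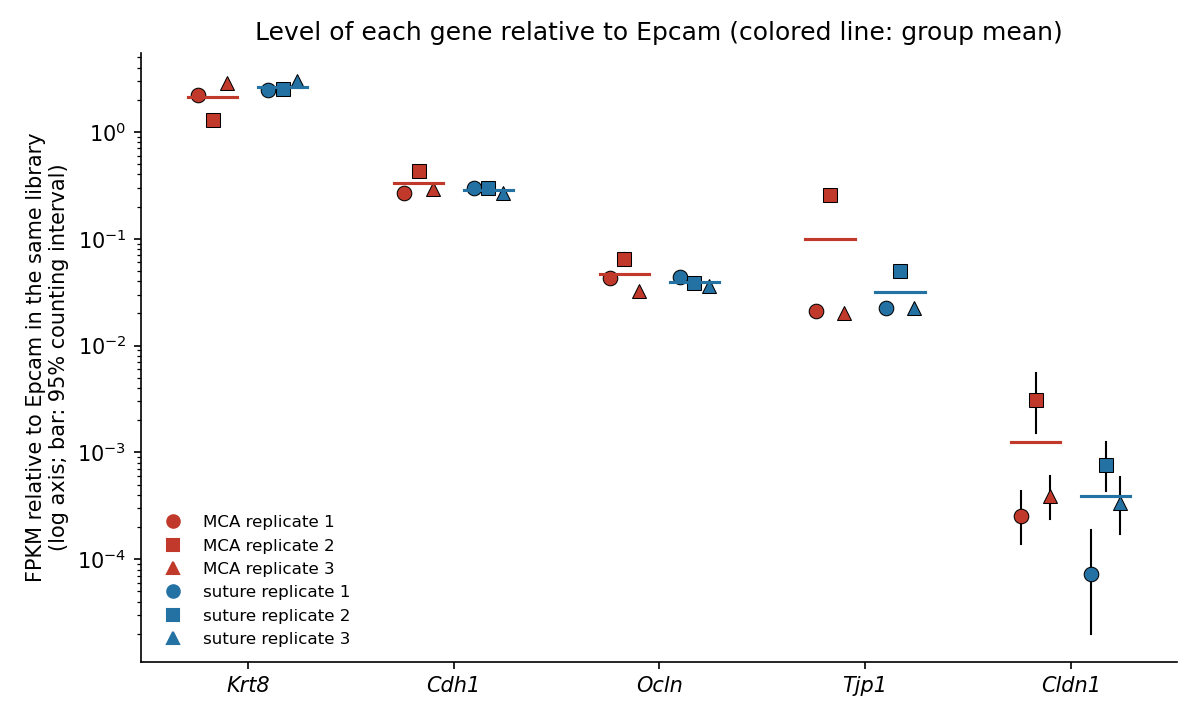
Level of each gene divided by that of Epcam in the same library (log axis), with 95% counting intervals (black bars, mostly smaller than the symbols) and group means (colored lines). Cdh1, Krt8 and Ocln keep narrow ranges outside MCA replicate 2 (red squares), whereas the Tjp1 ratio runs from 0.0200 to 0.257.

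Across all 6 libraries the log2 ratio to Epcam had an SD of 0.26 for Cdh1, 0.35 for Ocln, 0.44 for Krt8 and 1.45 for Tjp1. Only 0.277% of the other genes kept a steadier ratio to Epcam than Cdh1 did. The shares were 0.674% for Ocln and 1.39% for Krt8, against 48.6% for Tjp1, whose SD was near the median of all genes, 1.46. These SDs depend on MCA replicate 2, and a version without it was added after the data had been seen. Over the other 5 libraries the SD was 0.082 for Cdh1, 0.18 for Ocln, 0.17 for Krt8 and 0.55 for Tjp1, beside a median of 0.63. A steadier ratio was then kept by 2 other genes for Cdh1, by 0.891% for Ocln, 0.666% for Krt8 and 35.5% for Tjp1.

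Many genes of the table followed the mean profile of the 5 tested genes across libraries. The measure was Pearson's correlation, over the 6 libraries, with the mean of the 5 tested genes after each was centred and scaled. It was 0.97 for Epcam, 0.98 for Cdh1, 0.94 for Krt8, 0.99 for Ocln and 0.55 for Tjp1, all of which enter the mean. Because Tjp1 enters it too, the mean differs from the pattern that the other tested genes shared. Outside the set the correlation was highest for ENSRNOG00000016526 (0.999) and ENSRNOG00000020468 (0.998), which no table used here names. ENSRNOG00000016526 was at 51.9, 9.68 and 44.7 FPKM with MCA and at 61.8, 29.0 and 30.9 FPKM with suture. Of 13586 other genes, 469 had a correlation of at least 0.95, and 153 of them also reached it without MCA replicate 2. These correlations share the same few libraries, of which 1 lies far from the rest, and are a description of them.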

How the data were processed

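Per the labels' protocols, TRIzol RNA went into NEBNext Ultra libraries sequenced on a DNBSEQ-T7, and RNA was assessed with a NanoDrop. The deposited values are FPKM made by the authors, per the labels' protocols, with 1 column per library. The submitters' processing notes name limma without a role. Not given in the sources used here are the aligner, counter, build, annotation and strandedness. Reads shared by overlapping genes stay as assigned.

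Groups and replicate numbers came from the labels. The 6 genes, the lists and the tests were chosen with earlier results of these data known. Library totals and fragments were recovered from the full-precision FPKM. For each of the 21417 genes a length was found that gave whole fragments throughout, within the set tolerance of 1e-05 of a fragment. The shortest such length was taken, so fragment counts are the smallest that fit. The method was tested on simulated data. The 13591 genes averaging 1 FPKM or more were kept and 7826 removed. Log2(FPKM + 1) was compared with limma 3.58.1 in R 4.3.3 (empirical Bayes with trend, two-sided, Benjamini-Hochberg, threshold 0.05). A fold on this scale understates changes of low genes. The limma fit was also run on simulated data with independent noise of equal size in every library. That simulation does not cover a library that stands apart. Poisson and Clopper-Pearson intervals (95%) cover counting error only. Ratios to Epcam were compared by exact permutation. P-values set the group difference against the spread between these libraries, and the spread itself was not tested. Named genes were the 6, plus those most like them in pattern, of which 2 are given by identifier. Lists of other junction, epithelial, muscle, stromal, immune, endothelial, mesothelial, neural and squamous markers had been fixed by symbol. They are not analysed here, because 0 entries of the reference table carry an Ensembl identifier. No batch is labelled. Promoter windows came from RefSeq (GRCr8). Python 3.11.15 was used.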

Additional observations from a re-analysis of the deposited data

How the results depend on the processing

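Over the 15 alternatives, 0 genes passed the adjusted threshold in 14, leaving out each library included, and array quality weights gave 35. The count at an unadjusted p under 0.05, 667, became 334 when genes had to average 5 FPKM, 1360 with array weights and 511 to 1065 with 1 library left out, 1065 without MCA replicate 2. None of the 5 genes passed the adjusted threshold in any alternative (limma adjusted p from 0.769 to 1). With array weights (0.290 for MCA replicate 2, 4.31 for MCA replicate 1) the log2 differences turned to 0.42 (Epcam), 0.41 (Cdh1), 0.15 (Krt8) and 0.54 (Ocln), and that of Tjp1 went from 0.02 to 0.20. With 1 library left out they ran from -1.33 to 0.59 (Epcam), -1.03 to 0.54 (Cdh1), -1.92 to 0.54 (Krt8), -1.02 to 0.48 (Ocln) and -0.13 to 0.15 (Tjp1), and the positive ends of the first 4 came without MCA replicate 2. Tjp1 turned to -0.04 without MCA replicate 1 and to -0.13 without suture replicate 3. Pseudocounts, other filters, scalings and limma-voom on recovered fragments kept the direction of all 5. In the fit without a filter Cldn1 had a log2 difference of 0.10 (limma adjusted p = 0.964).

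The replicate block gave 1141 genes at an unadjusted p under 0.05, 0 past the adjusted threshold, and the same 5 differences, with adjusted p of 0.786 to 0.988. Same-numbered libraries deviated together at correlations of 0.42, 0.53 and -0.0016, MCA replicate 3 deviated most like suture replicate 1, and the labels do not say that numbers pair animals, so the numbers were not used as pairs.

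With 1 library left out, ratios to Epcam differed by -0.042 to 0.31 (Cdh1), -0.63 to -0.05 (Krt8), -0.52 to 1.33 (Tjp1), -0.083 to 0.42 (Ocln) and 0.26 to 2.11 (Cldn1). Without MCA replicate 2 they were -0.042, -0.05, -0.52, -0.083 and 0.26, in that order. Krt8 as the denominator, a pseudocount of 1 and the replicate block turned none. The SD of log2(FPKM + 1) ran, with 1 library left out, from 0.058 to 2.71 (Epcam), 0.033 to 2.23 (Cdh1), 0.21 to 3.47 (Krt8), 0.050 to 0.15 (Tjp1), 0.34 to 2.13 (Ocln) and 0.036 to 0.13 (Cldn1) within MCA. Within suture it ran from 0.41 to 0.99, 0.46 to 0.97, 0.21 to 0.95, 0.17 to 0.40, 0.50 to 1.09 and 0.055 to 0.20, in that order. The low MCA ends of Epcam, Cdh1, Krt8 and Ocln came without MCA replicate 2. Median-of-ratios scaling gave Tjp1 within MCA 0.061. Pseudocounts of 0.1 and 0.5 gave Cldn1 0.30 and 0.15 within MCA and 0.63 and 0.25 within suture, where a smaller pseudocount compresses low values less. The 4 to 20 fragments of Cldn1 limit what can be said of it, and the other genes are limited by 3 libraries a group.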
